A study of Mus musculus with 4 samples.

Results

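Genes of matrix breakdown and matrix assembly were followed in sorted myeloid cells of the corpus callosum of mice: the metalloproteinases Mmp12, Mmp14, Adam8, Adam10, Adam17 and Adam33, the inhibitor Timp2, the urokinase Plau and its receptor Plaur, and the matrix protein fibronectin (Fn1). These are 10 of the 16342 genes listed in at least 1 of the 4 deposited count tables. They were picked by name with their week 5 against week 0 difference and their shares of positive cells already known, so for these genes that contrast is a description and carries no test. Mmp12 was not listed in the table of week 0 replicate 1, nor Fn1 in that of week 0 replicate 2, and both were taken as 0 there.

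The animals were male C57BL/6 mice, labelled as 13 weeks old in all groups. The 2 week 0 libraries came from animals that were not treated, and the 2 week 5 libraries from animals given cuprizone, a copper chelator that damages oligodendrocytes and strips myelin. Live nucleated single cells carrying CD11b, a surface integrin of myeloid cells, were sorted, so the gate sets which cells are seen, and each transcript molecule was counted by its unique molecular identifier (UMI). The labels do not say whether the libraries are separate animals or pools of animals, so any spread between them may be technical.

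Cells were grouped without using the 10 genes or the other protease and matrix genes described below. The values concern 901 and 904 microglia-like cells in replicates 1 and 2 of week 0, then 908 and 855 in those of week 5, with 2220859, 4499366, 6116077 and 3020351 UMIs in the same order. The median cell held 1499, 3916, 6103 and 2332 UMIs, so depth differed within each week as well as between weeks. All 13 microglia markers were detected in every library, and their sum was 34077 and 38108 CPM (counts scaled to a common library total) at week 0, against 20431 and 25526 at week 5. Most week 0 cells of the class lay in 3 clusters (1, 2 and 4) and most week 5 cells in 4 clusters (0, 2, 3 and 9), so the weeks are compared over different mixtures of clusters. Libraries shared at most 2 cell barcodes per pair.

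Metalloproteinases are zinc-dependent enzymes. The matrix metalloproteinases cut proteins of the extracellular matrix, whereas the membrane-bound ADAM proteases mainly release the outer parts of cell-surface proteins, and TIMP proteins bind and block members of both groups. Urokinase is a serine protease that turns plasminogen into plasmin at the cell surface when held by its receptor, and plasmin degrades fibrin and matrix proteins and activates some metalloproteinases. Macrophages and microglia are known sources of all of these components in injured tissue.

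The 10 genes fell into a steady and a week 5-high set. Mmp12, Adam33, Fn1, Plaur and Adam8 were at or near 0 or low in both week 0 libraries and higher in both week 5 libraries. Adam10, Adam17 and Mmp14 were at similar levels at both times, Timp2 was high in 1 week 5 library, and Plau was moderately higher. The summed counts were put to edgeR's quasi-likelihood test, in which all 10 passed the filter on low counts. Mmp12, Adam8, Adam33 and Fn1, at or near 0 at week 0, passed it through week 5 alone, so only a rise could be called. Of the 10 genes, 5 had an adjusted p under 0.05, all of them higher at week 5. Over all genes tested the share was 3.76% in either direction and 3.39% higher, and because the contrast chose the 10 genes nothing is read from this count.

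**Figure D1:**
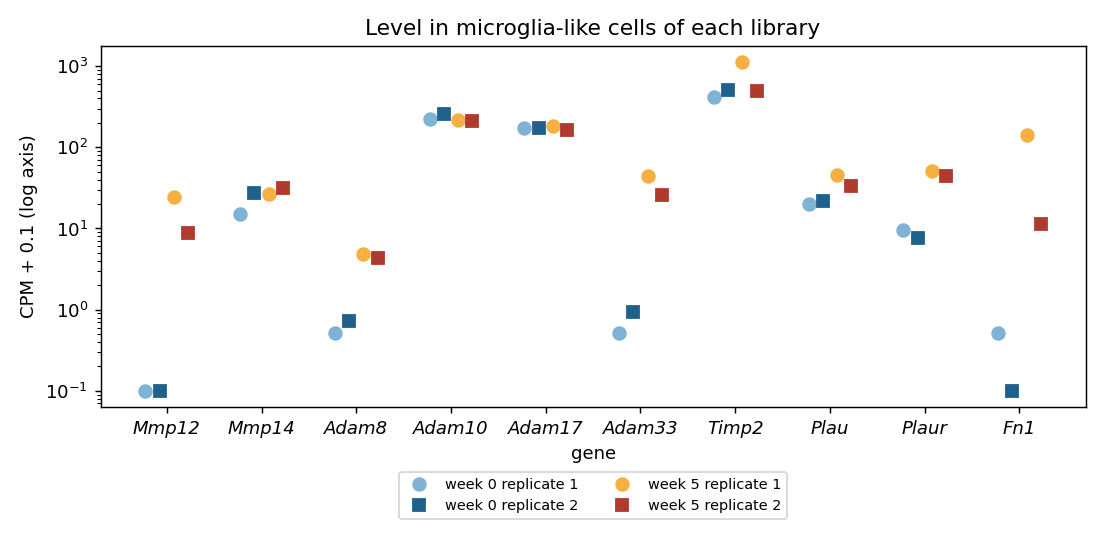
Level of each gene in microglia-like cells of each library, in CPM on a log axis with a small constant added so that 0 can be drawn; each point is 1 library (blue, week 0; orange and red, week 5). Mmp12, Adam8, Adam33, Plaur and Fn1 have both week 5 points well above both week 0 points, whereas the points of Adam10 and Adam17 lie close together.

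Stretches of DNA just upstream of the start sites were taken from RefSeq on build GRCm38.p6. They are shown for the week 5-high genes Mmp12 and Plaur, with Adam10 as a gene whose level was alike at both times. The stretch before Adam8, which was also week 5-high, is not printed. The table held windows for 7 of the 10 genes (8 windows, since Mmp12 has 2 start sites), and each window is the 250 bases before a start site, written 5′ to 3′ on the gene's strand. Capitals mark matches on either strand to TGANTCA, the AP-1 motif, or to a pair of Ets cores, which is GGAA, any 2 bases and GGAA. The Plaur window is chr7:24462233-24462482 (+ strand), the Mmp12 windows are chr9:7344147-7344396 and chr9:7347124-7347373 (+ strand), and the Adam10 window is chr9:70678732-70678981 (+ strand).
Plaur: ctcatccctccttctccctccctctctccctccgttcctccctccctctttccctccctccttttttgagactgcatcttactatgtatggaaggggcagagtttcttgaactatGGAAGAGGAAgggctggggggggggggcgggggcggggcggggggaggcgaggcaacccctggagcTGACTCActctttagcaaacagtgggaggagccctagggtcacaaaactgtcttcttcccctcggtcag
Mmp12, first start site: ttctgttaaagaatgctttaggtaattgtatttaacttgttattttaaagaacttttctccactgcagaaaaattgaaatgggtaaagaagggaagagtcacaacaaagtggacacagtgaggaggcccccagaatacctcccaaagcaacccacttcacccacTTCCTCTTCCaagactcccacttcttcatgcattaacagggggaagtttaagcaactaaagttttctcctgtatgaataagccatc
Mmp12, second start site: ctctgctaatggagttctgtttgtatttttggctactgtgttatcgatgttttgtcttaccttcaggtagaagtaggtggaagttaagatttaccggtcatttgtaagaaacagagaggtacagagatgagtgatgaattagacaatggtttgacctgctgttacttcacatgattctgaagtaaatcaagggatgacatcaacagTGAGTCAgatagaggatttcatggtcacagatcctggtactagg
Adam10: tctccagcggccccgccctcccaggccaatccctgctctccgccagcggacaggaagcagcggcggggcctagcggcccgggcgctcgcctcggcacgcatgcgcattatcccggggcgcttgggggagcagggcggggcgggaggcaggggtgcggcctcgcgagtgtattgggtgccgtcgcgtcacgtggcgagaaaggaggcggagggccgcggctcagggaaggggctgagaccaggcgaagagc

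The Plaur window held TGACTCA with its first base 69 bases before the start site and GGAAGAGGAA 135 bases before it. The first Mmp12 window held TTCCTCTTCC, the pair of Ets cores on the opposite strand, from 86 bases before the start, and the second held TGAGTCA from 44 bases before it. None of the windows of Adam8, Adam10, Adam17, Mmp14 or Timp2 held either motif. Of these genes, Adam8 was higher after cuprizone, as Plaur and Mmp12 were, so the motifs were not found before every gene that rose. Of 32851 windows of this length in the table, 6.75% held the AP-1 motif and 2.79% the Ets pair. The shorter PU.1 box GAGGAA, which can lie inside the Ets pair, was in 23.3% of all windows and, of the 8, in those of Plaur and the first Mmp12 start site. The Mmp12 windows contained 40.0% and 39.6% G and C, the Plaur window 59.6% and the Adam10 window 74.0%, beside a median of 52.4% over all windows. These are matches of letters and were not tied to binding or to expression.

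Mmp12 (chr9:7344381-7369499, + strand, GRCm38) encodes macrophage elastase, a secreted enzyme that cleaves elastin and other matrix proteins. The gene Mmp1b overlaps it on the opposite strand and was not analysed here. Microglia-like cells held 0 Mmp12 UMIs in either week 0 library, 122 in week 5 replicate 1 (24.0 CPM) and 27 in week 5 replicate 2 (8.77 CPM). Both week 5 libraries thus lay above both week 0 libraries, and week 5 replicate 1 was the higher. Taking 3 UMIs for the whole week 0 group as the floor, Mmp12 was at least 58.0-fold higher in replicate 1 of week 5 and, in replicate 2, at least 21.2-fold higher.

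Few cells carried these transcripts. A UMI of Mmp12 was found in 0 of 901 and 0 of 904 cells at week 0, which allows shares of up to 0.333% and 0.332%, and in 22 of 908 (2.42%, exact binomial 95% interval 1.52% to 3.65%) and 13 of 855 cells (1.52%, 0.812% to 2.59%) at week 5. Such intervals and floors cover counting error only. In cells thinned to 1000 UMIs each, the week 5 shares were 0.825% and 0.796%. The 5 cells with the most Mmp12 held 71.3% of its UMIs in week 5 replicate 1 and 70.4% in week 5 replicate 2, and a single cell held up to 35 and 9 UMIs.

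**Figure D2:**
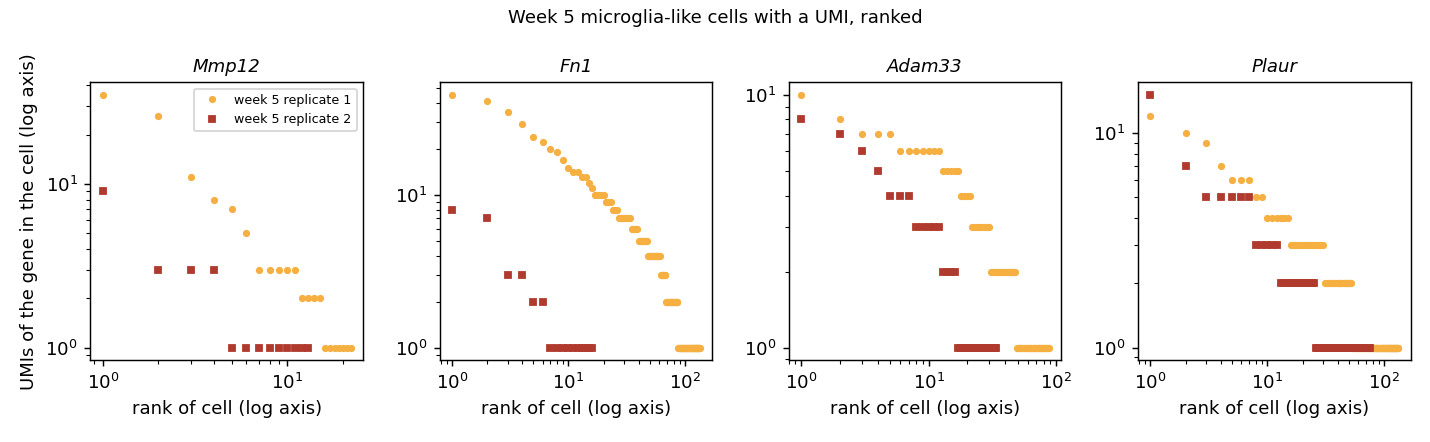
UMIs of Mmp12, Fn1, Adam33 and Plaur in each week 5 microglia-like cell with at least 1 UMI, ordered from the highest; both axes are logarithmic, and each point is 1 cell (orange, replicate 1; red, replicate 2). Mmp12 and Fn1 fall steeply from up to 35 and 45 UMIs in 1 cell, and the Fn1 curve of replicate 1 is far longer than that of replicate 2 (134 against 16 cells).

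Mmp14 (chr14:54431612-54445364, + strand) encodes a membrane-anchored metalloproteinase that cuts collagen at the cell surface and activates pro-MMP2. Its level was 14.9 and 26.9 CPM in week 0 replicates 1 and 2 and 26.2 and 31.2 CPM in week 5 replicates 1 and 2. The groups overlapped, since week 0 replicate 2 exceeded week 5 replicate 1, and the fitted log2 fold change was 0.41 (SE 0.29).

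Adam10 (chr9:70678997-70780229, + strand) and Adam17 (chr12:21323509-21373632, - strand) are the main sheddases of the cell surface; ADAM10 cuts Notch receptors and ADAM17 releases tumour necrosis factor. Adam10 stood at 224 and 256 CPM at week 0 and at 219 and 208 CPM at week 5. Both week 5 values lay just below both week 0 values, with a log2 fold change of -0.17 (SE 0.25) that became 0.03 in cells thinned to equal depth. Adam17 stood at 172 and 171 CPM at week 0 and at 181 and 163 CPM at week 5, with overlapping groups and a log2 fold change of 0.01 (SE 0.23). The Iah1 gene on the opposite strand overlaps Adam17, and with a strand setting not given in the sources used here, reads of the pair may not be fully separated.

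The shares of cells with a UMI of these sheddases were higher in the 2 libraries with the deeper cells, week 0 replicate 2 and week 5 replicate 1. Adam10 was found in 36.0% and 59.1% of week 0 cells (replicates 1 and 2) and in 58.1% and 42.0% of week 5 cells. After thinning to 1000 UMIs the shares were 20.0%, 19.6%, 18.0% and 20.2% in the same order. Adam17 was found in 31.6%, 47.2%, 53.3% and 37.4% of cells, and in 17.3%, 16.3%, 13.9% and 16.2% after thinning.

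Adam8 (chr7:139978932-139992562, - strand) encodes an ADAM protease of myeloid cells. Only 1 and 3 UMIs were counted in week 0 replicates 1 and 2, and 24 and 13 in week 5 replicates 1 and 2. The levels were 0.415 and 0.621 CPM against 4.73 and 4.22 CPM, with no overlap. The ratio of summed counts was 8.22 (95% counting interval 2.95 to 31.7). Its call at an adjusted p under 0.05 was lost in 8 of 16 alternative analyses, among them those without either week 0 library and that without week 5 replicate 1. The antisense gene Gm16201, with 34 UMIs, overlaps Adam8.

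Adam33 (chr2:131050591-131063814, - strand) encodes an ADAM protease best known from smooth muscle and fibroblasts of the airway. Microglia-like cells held 1 and 4 Adam33 UMIs in week 0 replicates 1 and 2 and 225 and 79 in week 5 replicates 1 and 2. This amounts to 0.415 and 0.827 CPM against 44.3 and 25.7 CPM, and the groups were far apart. The ratio of summed counts was 54.0 (22.9 to 168), and the fitted log2 fold change was 5.63 (SE 0.48). Over 18 alternative analyses the fitted value lay between 3.85 and 9.83, and with so few week 0 UMIs its size is imprecise. In cells, a UMI was found in 1 of 901 and 1 of 904 at week 0 and in 88 of 908 (9.69%) and 34 of 855 (3.98%) at week 5, and thinning brought the week 5 shares to 2.12% and 2.52%.

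The week 0 UMIs of Adam33 in the microglia-like class came from 2 cells with high macrophage markers, whose 11 border-associated macrophage markers summed to 5678 and 4304 CPM. Cells of the class with at least 5 UMIs of macrophage markers or of neutrophil markers numbered 1, 3, 24 and 3 in the 4 libraries. Stab1 and Dab2, which microglia also express, were left out of the macrophage markers. Deeper cells reach such a count more easily, and week 5 replicate 1 had the deepest cells. The marked cells held all 5 of the week 0 Adam33 UMIs, and 51 of 225 and 7 of 79 at week 5.

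Timp2 (chr11:118301069-118355740, - strand) encodes a secreted inhibitor of metalloproteinases that also takes part in pro-MMP2 activation by MMP14. Its level was 413 and 504 CPM in week 0 replicates 1 and 2, 1114 CPM in week 5 replicate 1 and 501 CPM in week 5 replicate 2. Only week 5 replicate 1 stood above week 0, and week 5 replicate 2 lay within the week 0 range. The log2 fold change was 0.82 (SE 0.38), 0.13 without week 5 replicate 1 and 1.33 without week 5 replicate 2, the only one of the analyses in which Timp2 had an adjusted p under 0.05. Cep295nl on the same strand overlaps Timp2 and held 36 UMIs, so a few reads could be split between them.

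Plau (chr14:20836660-20843385, + strand) encodes urokinase-type plasminogen activator. It stood at 19.9 and 21.9 CPM in week 0 replicates 1 and 2 and at 44.9 and 33.5 CPM in week 5 replicates 1 and 2. Both week 5 libraries exceeded both week 0 libraries, with a log2 fold change of 0.91 (SE 0.24). The fit did not call Plau, but called it without week 5 replicate 2, with no filter on low counts and with a block of crossed replicate numbers. The share of cells with a Plau UMI was 4.44%, 9.40%, 13.5% and 7.95% in the 4 libraries, and after thinning 2.12%, 2.87%, 2.83% and 2.79%, so the groups overlapped in both measures.

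Plaur (chr7:24462484-24475968, + strand) encodes the membrane receptor that holds urokinase at the cell surface. Its level was 9.54 and 7.45 CPM at week 0, against 50.8 and 44.8 CPM at week 5, or 8.49 ± 1.48 against 47.8 ± 4.21 CPM (mean ± SD, n = 2 libraries each). The week 5 libraries were close to each other and far above week 0. The fitted log2 fold change was 2.52 (SE 0.26), between 1.93 and 2.84 over all 18 alternative analyses. A Plaur UMI was found in 2.33% and 3.43% of cells at week 0 and in 14.4% and 8.77% at week 5, and thinning left 0.926% and 0.359% against 3.07% and 4.24%.

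Fn1 (chr1:71585520-71653200, - strand) encodes fibronectin, a matrix glycoprotein that cells grip through integrins. Microglia-like cells held 1 Fn1 UMI in week 0 replicate 1, 0 in week 0 replicate 2, 722 in week 5 replicate 1 (142 CPM) and 35 in week 5 replicate 2 (11.4 CPM). Both week 5 libraries were above week 0, but the ratio between them was greater than for any other of the 10 genes. The ratio of summed counts, which rests on 1 UMI at week 0, was 672 (95% counting interval 120 to 26596), with 1030 (184 to 40740) for week 5 replicate 1 alone and 82.4 (13.9 to 3346) for week 5 replicate 2 alone. The antisense gene Apol7d, with 1 UMI, overlaps Fn1. A UMI was found in 134 of 908 cells (14.8%) and 16 of 855 cells (1.87%) at week 5, and after thinning in 5.54% and 1.46%. The call for Fn1 was lost under limma-voom and when all cells were summed.

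**Figure D3:**
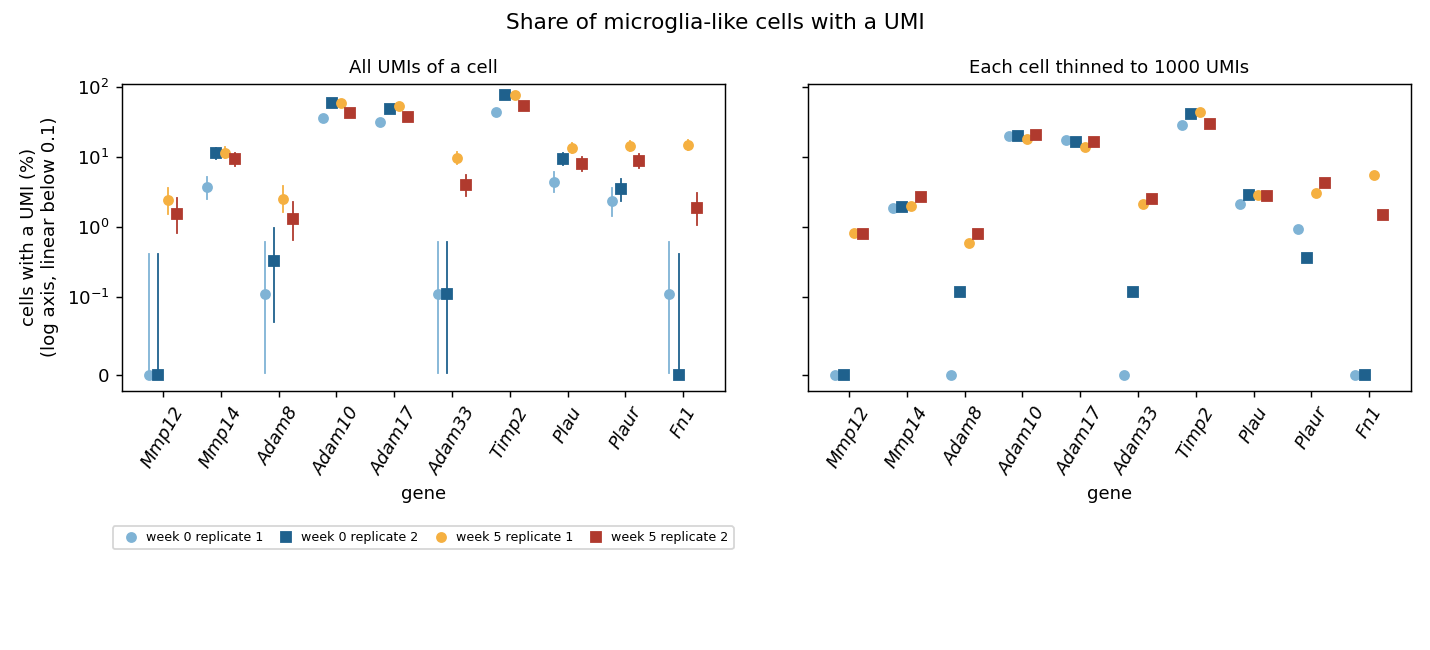
Percent of microglia-like cells with at least 1 UMI of each gene, with all UMIs of a cell (left, bars are exact binomial 95% intervals) and with each cell thinned to 1000 UMIs (right); the axis is logarithmic and linear near 0, and each point is 1 library. Adam10, Adam17 and Plau lie together after thinning, whereas Mmp12, Adam8, Adam33, Plaur and Fn1 keep both week 5 points above both week 0 points. The thinned Mmp14 points have that order too but lie close, at 1.85% and 1.92% at week 0 and 2.00% and 2.65% at week 5.

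The background from free RNA was read in the 34 week 5 cells of the choroid plexus-like and oligodendrocyte-like clusters, with a median of 2795 UMIs. None of them held a UMI of Mmp12, Adam8, Adam33, Plaur or Fn1, which allows a share of up to 8.82%. In the microglia-like cells of both week 5 libraries the shares were 1.99%, 1.93%, 6.92%, 11.7% and 8.51% in the same order. Within replicates 1 and 2 the limits were 20.0% and 15.8%, above the microglia-like share of each of these genes. So few cells cannot show whether these transcripts were part of the background. Timp2 was found in 9 of 15 of these cells in replicate 1 and 1 of 19 in replicate 2, against 75.9% and 53.6% of the microglia-like cells. Adam10 was found in 5 of 15 and 2 of 19 of them, against 58.1% and 42.0% of the microglia-like cells.

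Markers of other myeloid cells were summed over the microglia-like class beside these values. The 9 monocyte markers summed to 11.7 and 15.8 CPM in the week 0 libraries, against 31.9 and 26.8 CPM in the week 5 ones, with Ly6c2, Chil3 and Ace at 0 in both week 0 libraries, Ly6c2 and Hp at 0 in week 5 replicate 1 and Chil3 and Hp at 0 in week 5 replicate 2. The 11 border-associated macrophage markers summed to 419 and 281 CPM in the week 0 libraries, against 284 and 297 CPM later. The 5 of 9 neutrophil markers listed in the tables summed to between 0.5 and 292 CPM, the highest value coming from week 0 replicate 2. The sums of the other 10 classes of cells lay between 0 and 296 CPM. In the cells with a Mmp12 UMI the monocyte markers summed to 22.9 CPM in week 5 replicate 1 and were all at 0 in week 5 replicate 2. In those with a Fn1 UMI these markers summed to 26.1 and 29.9 CPM, and in those with an Adam33 UMI to 29.6 and 154 CPM. The cells with at least 5 UMIs of macrophage or neutrophil markers held 2 of 122 Mmp12 and 96 of 722 Fn1 UMIs of week 5 replicate 1. With these cells left out, in an analysis not planned beforehand, Mmp12, Adam33, Plaur and Fn1 kept their calls. Because the contrast chose these genes, nothing is read from the kept calls. Vcam1, described below, lost its call in that analysis. The part of cells with fewer such markers in the differences was not tested.

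Of the microglia-like clusters at week 5, numbers 9 and 3 together held most UMIs of Fn1, Adam33 and Adam8 in both libraries. They also held most of those of Mmp12, narrowly so in replicate 2, and most of those of Plaur in replicate 1. In replicate 2 cluster 0 held 52.9% of the Plaur UMIs and 44.4% of the Mmp12 UMIs, more than either of the others. Those Mmp12 UMIs came from 2 cells, and clusters 9 and 3 held 25.9% each. Cluster 9 was led by Apoc1, Spp1 and Fabp5, with 213 and 45 cells of replicates 1 and 2 and a median of 13506 and 5246 UMIs. Cluster 3 was led by Lilrb4a, Neat1 and Csf2ra, with 72 and 101 cells of median 1421 and 1393 UMIs. Cluster 0, the largest at week 5 and led by Rtp4, Ccl12 and Ddit4, held 392 and 255 cells. Levels by cluster are CPM of the total UMIs of the cells.

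Fn1 reached 534 and 148 CPM in cluster 3 and 222 and 18.8 CPM in cluster 9, but 7.2 and 4.1 CPM in cluster 0, for replicates 1 and 2. It was found in 109 of 213 cells of cluster 9 in replicate 1 and in 5 of 45 in replicate 2. Cluster 9 held 87.5% of the Fn1 UMIs of replicate 1 and 14.3% of those of replicate 2, in which cluster 3 held 68.6%. The level was lower in replicate 2 in both clusters, whereas replicate 2 had fewer cells than replicate 1 in cluster 9 and more in cluster 3.

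Adam33 followed the same order, with 198 and 296 CPM in cluster 3, 65.3 and 56.4 CPM in cluster 9, and 4.6 and 4.1 CPM in cluster 0. Mmp12 stood at 61.1 and 43.2 CPM in cluster 3, from 2 and 5 cells, at 31.6 and 26.3 CPM in cluster 9, from 15 and 5 cells, and at 9.2 and 8.2 CPM in cluster 0. Each of these levels rests on few cells. Adam8 reached 30.5 and 43.2 CPM in cluster 3, from 4 and 7 UMIs, and 6.0 and 3.8 CPM in cluster 9.

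Plaur was more widely spread. Its level was 45.8 and 123 CPM in cluster 3, 60.4 and 117 CPM in cluster 9 and 28.2 and 49.9 CPM in cluster 0, with replicate 2 the higher in each. In cluster 1, which held 159 and 548 cells of the week 0 libraries, it was 4.5 and 7.8 CPM. Plau stood at 115 and 86.4 CPM in cluster 3, 40.7 and 82.8 CPM in cluster 9 and 33.2 and 36.9 CPM in cluster 0, beside 21.4 and 20.4 CPM in cluster 1 at week 0.

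Timp2 was highest in cluster 9, at 1285 and 1034 CPM, and lower in cluster 3, at 267 and 419 CPM. It stood at 673 and 601 CPM in cluster 0 and at 570 and 544 CPM in cluster 1 at week 0. Cluster 9 made up 23.5% of the class in replicate 1 and 5.26% in replicate 2. Adam10 and Adam17 were lower in cluster 9 (117 and 147 CPM for Adam10, 114 and 117 CPM for Adam17) than in cluster 0 (230 and 201 CPM, 178 and 157 CPM).

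**Figure D4:**
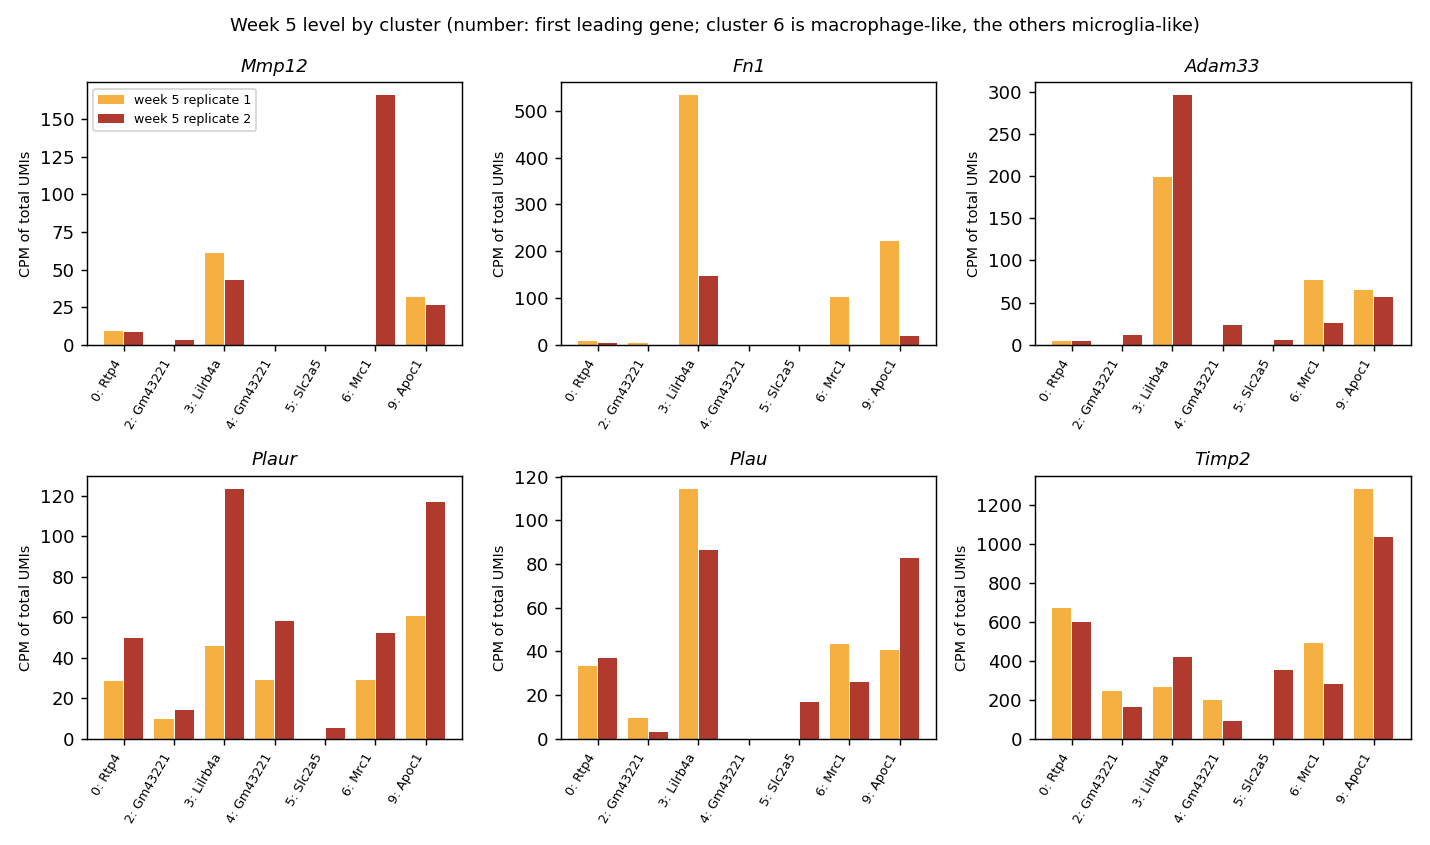
Level of 6 of the genes in week 5 clusters with at least 30 cells of a library, in CPM of the cells' total UMIs; bars are 1 library each (orange, replicate 1; red, replicate 2), and the label under each pair gives the cluster's number and its first leading gene. A missing bar is a level of 0 or, for replicate 1 in cluster 5, too few cells; the Mmp12 bar of the macrophage-like cluster 6 comes from 1 cell with 32 UMIs.

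Without cluster 9, the log2 fold changes were 4.56 for Adam33, 1.93 for Plaur, 0.57 for Plau and 0.20 for Timp2, against 5.63, 2.52, 0.91 and 0.82 with it. Those of Mmp12 and Fn1 were 7.82 and 6.77 against 9.02 and 8.84, but for these genes, with 0 and 1 UMI at week 0, the fitted size depends on the constant added to the counts. Cluster 9 had the highest level of Spp1, which encodes osteopontin, among the microglia-like clusters, and the deepest cells in replicate 1 but not in replicate 2, where the median of 5246 UMIs lay below the 5654 of cluster 0.

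Some of the genes were found in the same cells. In week 5 replicate 1, 12 of 22 Mmp12-positive cells also held Plaur (54.5%, against 13.4% of the other cells), 11 held Plau (against 12.6% of the others) and 17 held Spp1 (77.3% against 27.9%). In week 5 replicate 2 the counts among 13 such cells were 5 for Plaur (38.5% against 8.31%), 5 for Plau (38.5% against 7.48%) and 7 for Spp1 (53.8% against 8.19%). The Mmp12-positive cells were deeper in replicate 1, with a median of 9936 UMIs against 6036, and nearly as deep as the rest in replicate 2, with 2466 against 2316. Of the Fn1-positive cells, 40 of 134 in replicate 1 (29.9%, against 48 of 774 others) and 5 of 16 in replicate 2 (31.2%, against 29 of 839 others) held Adam33, at median depths of 13704 against 5550 UMIs and 2766 against 2303 UMIs. These overlaps are counts within single libraries, in which the paired transcripts share a cell's depth.

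The macrophage-like cluster held 21 and 5 cells at week 0 and 33 and 40 cells at week 5, of which 16 were T or NK cell-like when the clustering was finer. Adam33 was present there at week 0, with 11 and 1 UMIs in 7 and 1 cells, and at week 5 with 16 and 5 UMIs in 7 and 3 cells. These cells held 91.7% of the Adam33 UMIs in the table of week 0 replicate 1 (11 of 12) and 20.0% in that of week 0 replicate 2 (1 of 5). Mmp12 was found there in 1 cell of week 5 replicate 2, whose 32 UMIs were 54.2% of the table's 59. Fn1 gave 9 UMIs in 1 cell of week 0 replicate 1 and 21 UMIs in 3 cells of week 5 replicate 1. With so few cells per library the cluster was not compared between weeks, and the numbers of cells with Adam33, Mmp12 or Fn1 were the same when the class was taken at the finer clustering, with 19, 4, 31 and 31 cells.

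For the 6 genes with a UMI in at least 5% of microglia-like cells of both week 5 libraries, the most similar genes over 19 combinations of library and cluster were listed, among 6879 genes. The measure was Pearson's correlation of log2(CPM + 10), given as a description because the points share libraries and depth. Plaur was most like Ifi207 (0.89), Lgals3 (0.88) and Apoe (0.88), and Timp2 most like Micos10 (0.95), Lamp1 (0.93) and Cyba (0.93). Plau was most like Rap2b (0.82), Arap2 (0.82) and Tnfaip3 (0.80), Adam10 most like Commd8 (0.87) and Adam17 most like Lonp2 (0.84).

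The rest of these pathways was read from 10 lists, chosen with earlier results of these data known. They hold 196 other genes, of which 131 were in the tables and 76 were tested. In edgeR's quasi-likelihood test 8 rose at week 5 and 0 fell, beside 3.39% higher and 0.371% lower of all genes tested. The median log2 fold change was 0.01 against -0.01. Anxa2, Cd44 and Itga4, described below, passed the filter on low counts through week 5 alone, so only a rise could be called for them. At an unadjusted p under 0.05 in that test, 16 of the 76 genes were higher and 7 lower. The share of all genes at that level is not given here, so nothing is read from such counts here or below. DESeq2 called 8 of these 76 and limma-voom 5. With a library left out, the set of list genes tested differs, so such counts are not out of 76. Without week 5 replicate 2 the count was 19, and without week 5 replicate 1 it was 5.

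Around the urokinase system, 3 of 8 tested genes rose and 0 fell, beside 3.39% higher and 0.371% lower of all genes tested. Anxa2, whose product binds plasminogen and its activator, went from 0.415 and 1.45 CPM at week 0 to 35.4 and 11.4 CPM at week 5 (log2 fold change 4.43, SE 0.64, edgeR adjusted p = 0.0018), a call lost under limma-voom. Serpinb6a went from 6.22 and 6.21 CPM to 26.4 and 12.02 CPM (1.66, SE 0.39, edgeR adjusted p = 0.037), and its call was lost without week 5 replicate 1, without cluster 9 and under limma-voom. Lrp1, an uptake receptor of protease and inhibitor complexes, and Serpine2 had log2 fold changes of -0.25 (SE 0.28) and 0.48 (SE 0.29) and were not called.

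Of the proteases besides the 10 genes, 0 of 5 matrix metalloproteinases, 0 of 3 ADAM proteases and 0 of 4 ADAMTS proteases tested were called in either direction. Over all genes tested 3.76% were called, so 0 calls in lists this short says little. At an unadjusted p under 0.05, 1 ADAM protease was higher and none of the others passed. Adam9 had a log2 fold change of 0.72 (SE 0.24) and was called only without week 5 replicate 2 and with crossed replicate numbers. Adam15 stood at -0.26 (SE 0.23), Mmp2 at 0.34 (SE 0.32) and Mmp19 at 0.49 (SE 0.55). The other inhibitors of metalloproteinases had too few counts to be tested. Of the regulators of ADAM10 and ADAM17, 0 of 8 were called, with Tspan14 at -0.31 (SE 0.23) and Furin at 0.25 (SE 0.23).

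Among known substrates of shedding, 3 of 18 rose (Cd44, Vcam1 and Cxcl16) and 0 fell, beside 3.39% higher and 0.371% lower of all genes tested. Cxcl16, a membrane-bound chemokine cut by ADAM10, went from 52.7 and 48.0 CPM to 255 and 123 CPM (log2 fold change 1.92, SE 0.32, edgeR adjusted p = 0.0047). Cd44, a receptor of hyaluronan, went from 1.66 and 1.03 CPM to 29.5 and 7.15 CPM (3.88, SE 0.69, edgeR adjusted p = 0.0067), and its call was lost without week 5 replicate 1, under limma-voom and when all cells or every barcode were summed. Vcam1, an adhesion molecule, had an edgeR adjusted p of 0.046 and lost its call in 7 alternative analyses. Csf1r, at 3646 and 3767 CPM against 3139 and 3099 CPM, was not called.

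Of 13 tested matrix receptors, 3 rose, Cd44 again among them, and 0 fell, beside 3.39% higher and 0.371% lower of all genes tested. Itga4, the alpha chain of a fibronectin and VCAM1 receptor, went from 1.24 and 1.24 CPM to 13.4 and 11.7 CPM (log2 fold change 3.31, SE 0.46, edgeR adjusted p = 0.0012), and the call was lost when all cells or every barcode were summed. Sdc3, a heparan sulfate proteoglycan of the cell surface, went from 17.8 and 13.7 CPM to 150 and 95.8 CPM (2.99, SE 0.29, edgeR adjusted p = 0.00014). Besides Fn1, 0 of 12 tested matrix glycoproteins, collagens and proteoglycans were called, 3 being higher and 2 lower at an unadjusted p under 0.05. Of the 6 crosslinking and collagen-modifying genes 0 were called, with 1 higher and 1 lower at that level.

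**Figure D5:**
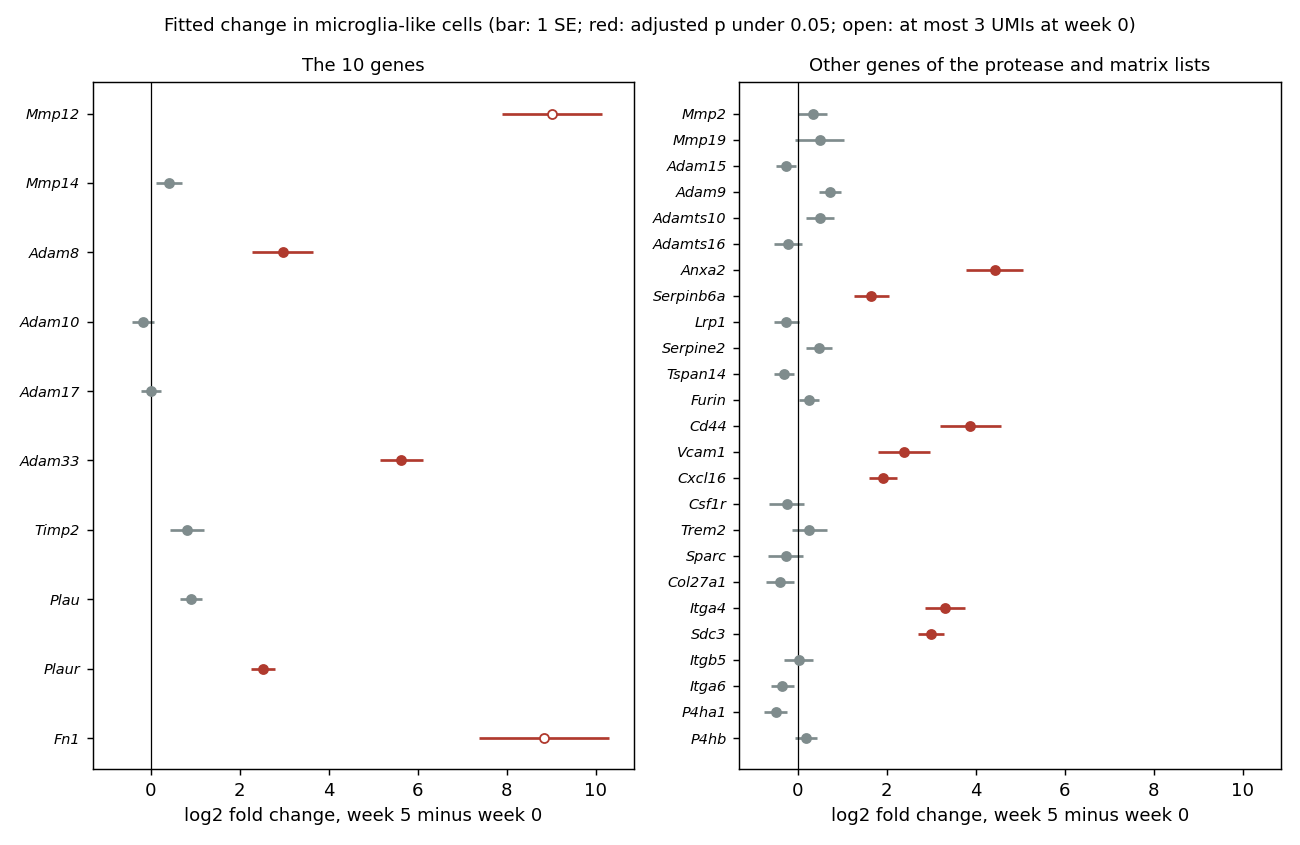
Fitted log2 fold change between week 5 and week 0 in microglia-like cells for the 10 genes (left) and 25 genes of the 10 lists (right); bars are 1 SE, red marks an adjusted p under 0.05 in edgeR, and open points mark genes with at most 3 UMIs at week 0, whose fitted size is not a bound. On the right, the 7 red points lie between 1.66 and 4.43, and the grey points lie near 0.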

How the data were processed

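The values deposited by the authors are raw UMI counts for genes in 1000 barcodes of each of 4 libraries, whole numbers with no scaling (2415001, 4631622, 6559032 and 3322818 UMIs for week 0 replicates 1 and 2 and week 5 replicates 1 and 2). STAR, Cell Ranger 3.0.0, Seurat 4 and build mm10 are named, with no role, in the submitters' processing notes (criteria for barcodes and genes were not given in the sources used here). Both the 10 genes and the gene lists were chosen with earlier results of these data known. A gene absent from a table was taken as 0.

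Barcodes needed 500 genes or more and a mitochondrial share of 10% or less (3728 of 4000), and scrublet in scanpy 1.11.5 marked 24 as doublets (0.644%), leaving 3704 cells. Cells were scaled to 10000 UMIs, reduced to 30 principal components of 2000 variable genes, without the 10 genes and the list genes, and clustered (Leiden, 15 neighbours, resolution 1) into 11 clusters. Names came from markers of 14 cell types: 8 clusters were microglia-like, 1 macrophage-like, 1 choroid plexus-like and 1 oligodendrocyte-like. Names may differ from the study's.

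UMI counts were summed per library over microglia-like cells and compared with edgeR 4.0.16 (quasi-likelihood test, TMM factors, its filter on low counts, Benjamini-Hochberg over 11065 genes); CPM are counts scaled to a common effective library total. The p-values weigh the difference between weeks against the spread between these libraries, estimated with the help of all genes. They may hold no spread between animals. DESeq2 1.42.0, limma-voom (limma 3.58.1), other filters, scalings, cell sets and leaving out each library were alternatives. The test was tried on simulated data. From each list, every gene with an adjusted p under 0.05 and the 2 most abundant others were eligible to be named; some of these genes are not reported here. Gene positions are those of GENCODE on GRCm38.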

Additional observations from a re-analysis of the deposited data

How the results depend on the processing

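Of the 10 genes, 5 had an adjusted p under 0.05 in the test as reported. The count was 3 under limma-voom, 3 with each cell thinned to 1000 UMIs (8 genes tested, without Mmp12 and Adam8) and 3 when all cells were summed. The shares of all genes tested that were called in these settings were 2.93%, 1.77% and 2.53%. The count stayed at 5 with a common limit of 2996 genes per cell, where 5.28% of all genes tested were called. Of the 76 list genes, 8 were called as reported, 5 under limma-voom, 15 with no filter on low counts, 3 after thinning, 5 with all cells, 5 with every barcode, and between 5 and 19 with 1 library left out. Over all genes the count was 416 as reported, 859 with no filter, 149 after thinning, and between 356 and 1506 with 1 library left out, the highest without week 5 replicate 2. With library size as the only scaling, 333 genes were called higher and 112 lower, against 375 and 41, with a shift of the median over all genes from -0.01 to -0.25 (log2). The cause of these changes was not tested.

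With the replicate number as a block, 5 of the 10 genes, 9 of the list genes and 504 of all genes (4.55%) were called. The labels do not say that the numbers pair libraries, and the replicate differences of the 2 weeks had a correlation of -0.17 over 6644 genes. With the pairing crossed, chosen after seeing the data, the counts were 6, 15 and 949 (8.58% of all genes).

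For 36 named genes and 18 alternatives, 605 of 639 fold changes kept their side of the threshold. Another 27 lost the call, 7 gained it and 0 reversed a call. Direction was compared only where a gene was called in the reported or the alternative analysis. The 605 thus include changes of sign in genes not called, such as Adam10 (from -0.40 to 0.03) and Mmp2 (from -0.58 to 0.69). Fn1 had an adjusted p of 0.22 under limma-voom and 0.058 with all cells, and Plau 0.017 with no filter. With 2 libraries per week, uneven depth and few UMIs of Mmp12, Adam8 and Adam33, sizes of change are imprecise.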
